A study of Mus musculus with 27 samples.

Results

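The genes described here encode the collagen chains of the mouse. They were all protein-coding genes whose symbol consists of Col, a type number, the letter a and a chain number, such as Col1a1 or Col4a3. This rule found 44 of the 56941 annotated genes: 11 chains of fibrillar collagens, 9 of basement membrane collagens, 9 of fibril-associated collagens with interrupted triple helices (FACIT), 6 of beaded filament (type VI) collagens, 4 of transmembrane collagens, 3 of short-chain network collagens and 2 others. Of the 44 genes, 41 had enough counts to be tested, and Col9a1, Col9a2 and Col19a1 did not.

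Collagens are extracellular matrix proteins in which alpha chains wind around each other into a trimer, so that chains of 1 type have to be made together. Fibrillar types I, III and V form the tensile fibrils of the lung interstitium and airway wall, type IV forms the network of basement membranes, which in the alveolus lies between epithelium and capillary, and type VI forms beaded filaments next to cells. Fibroblasts and smooth muscle cells are the usual sources of the fibrillar chains and of type VI, while endothelium and epithelium make much of type IV. Deposition of collagen under the airway epithelium is a known feature of the remodelled airway in asthma.

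Lungs came from male C57Bl/6J wild-type mice aged 7 to 8 weeks, in 4 groups. HDM/CP mice (n = 7) and HDM/SAL mice (n = 6) were given house dust mite extract (HDM, 10 µg each time), which sets off allergic inflammation of the airways, into the oropharynx on 5 occasions that were 2 to 3 days apart, and PBS/CP mice (n = 7) and PBS/SAL mice (n = 7) were given phosphate-buffered saline on the same schedule. At 24 h after the last of these, the CP groups received 100 µl of a suspension of combustion products (burned paper, plastic and plywood) at 2 mg per ml of saline and the SAL groups received saline alone, and whole lungs were frozen 24 h later. The collagen RNA therefore reflects an allergen course of under 2 weeks and a single exposure to combustion products, in whole lung, with airways, vessels and alveoli together.

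PolyA RNA was sequenced as read pairs of 150 bases, 20 M planned per sample. The deposited estimated counts summed to 56.3 M to 84.5 M per library, about 4 times the planned pairs, and are treated as estimates. Each library was taken as 1 mouse, since the labels number the libraries and name no pooling, and the p-values measure the spread between these libraries. The markers of alveolar type 2 cells summed to 28300 to 37600 TPM (transcripts scaled to a fixed total per library), as lung should give. The library numbers fall into 3 runs (45 to 64, 66 to 81 and 96 to 105), which the labels do not call batches. Libraries 102 (PBS/CP), 104 and 105 (PBS/SAL) had estimated counts under 60 M, and 104 and 105 also carried the most collagen RNA of their group. Col3a1, for example, was at 264 to 376 TPM in these PBS/SAL libraries and at 110 to 193 TPM in the other PBS/SAL libraries, so a result is also given without the libraries under 60 M where that adds or ends a call, and for several fibrillar chains. Leaving out 104 and 105 lowers the PBS/SAL mean of such a gene. A larger difference from PBS/SAL lungs is then built in and is no added evidence.

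The most abundant collagen transcripts of the lung were those of types IV, III, I and VI. By mean TPM, which is per transcript length and can be compared between genes, the order over the 27 libraries was Col4a1 (278 TPM), Col3a1 (266 TPM), Col4a2 (250 TPM), Col1a2 (233 TPM), Col6a1 (204 TPM), Col6a2 (143 TPM) and Col1a1 (137 TPM). A step down followed, to Col4a3 at 65 TPM. Within groups the order differed: by mean, Col3a1 came first in HDM/CP lungs (391 TPM, with Col4a1 at 323 TPM), while Col4a1 came first in PBS/SAL lungs (258 TPM, with Col3a1 at 197 TPM). Neighbours in the pooled order had overlapping ranges in every group, apart from Col6a1 and Col6a2, which overlapped in HDM/CP lungs only, and Col1a1 and Col4a3, which overlapped in PBS/SAL lungs only. These 7 chains held a median of 79.4% of the summed collagen TPM in HDM/CP lungs, 75.4% in HDM/SAL lungs, 73.7% in PBS/CP lungs and 72.0% in PBS/SAL lungs. At the other end, Col2a1 and Col11a1 of cartilage fibrils averaged 0.0392 and 0.0393 TPM, Col10a1 of growth plate cartilage averaged 0.045 TPM, and Col9a1, Col9a2 and Col19a1 averaged 0.0042, 0.0121 and 0.0161 TPM. Of the 12 chondrocyte markers, Acan, Cnmd, Matn1, Snorc, Ucma and Epyc were also too low to test. The other 6 were tested, and the list summed to 27.3 to 78.9 TPM over the libraries. Col9a1 was listed at 0 in 25 of the 27 libraries.

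**Figure D1:**
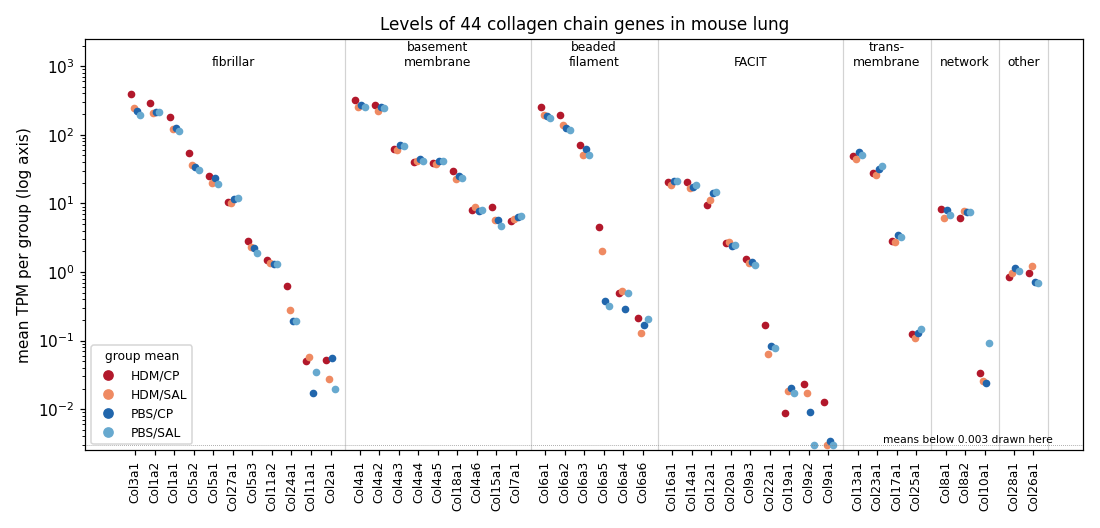
Mean TPM of each of the 44 collagen chain genes in HDM/CP, HDM/SAL, PBS/CP and PBS/SAL lungs (n = 7, 6, 7 and 7), on a log axis, by class and by falling level, with means below 0.003 TPM drawn at the dotted line. Levels span from 278 TPM for Col4a1 to 0.0042 TPM for Col9a1 (means of all libraries), and Col6a5 is the gene whose HDM groups stand farthest above its PBS groups.

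Summed over a class, the fibrillar chains came to 609 to 1220 TPM (median 1040) in HDM/CP lungs, 462 to 783 TPM (median 691) in HDM/SAL lungs, 574 to 774 TPM (median 610) in PBS/CP lungs and 388 to 1000 TPM (median 576) in PBS/SAL lungs. The beaded filament chains came to 372 to 668 TPM (median 528) in HDM/CP lungs, 322 to 440 TPM (median 385) in HDM/SAL lungs, 342 to 470 TPM (median 360) in PBS/CP lungs and 273 to 409 TPM (median 346) in PBS/SAL lungs. In both classes most HDM/CP lungs lay above the other groups, with library 96 the lowest of the HDM/CP group. The basement membrane chains came to 637 to 903 TPM (median 810) in HDM/CP lungs, 462 to 881 TPM (median 665) in HDM/SAL lungs, 554 to 854 TPM (median 740) in PBS/CP lungs and 584 to 771 TPM (median 699) in PBS/SAL lungs, and these ranges overlapped widely. The class sums are descriptions and were not tested.

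**Figure D2:**
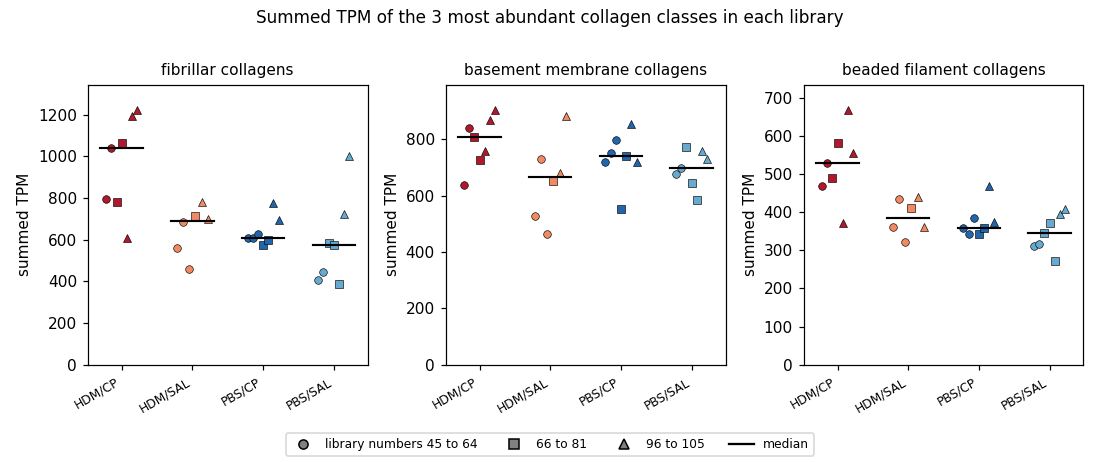
Summed TPM of the fibrillar, basement membrane and beaded filament chains in each library, by group; each point is a library, its shape gives the run of library numbers, and the bar is the group median. Fibrillar medians were 1040 TPM in HDM/CP lungs, 691 TPM in HDM/SAL lungs, 610 TPM in PBS/CP lungs and 576 TPM in PBS/SAL lungs; the highest PBS/SAL point, at 1000 TPM, is library 105.

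Counts were tested with edgeR's quasi-likelihood F test over all 24629 genes kept, with Benjamini-Hochberg adjustment, and a gene was called at an adjusted p under 0.05. Against PBS/SAL lungs, HDM/CP lungs had 15 of the 41 tested collagen genes called, 13 higher and 2 lower, where 14.5% of all genes tested were called, 8.61% higher and 5.88% lower. HDM/CP lungs against PBS/CP lungs had 9 called, 8 higher and 1 lower, where 7.87% of all genes were called, 5.6% higher and 2.27% lower. HDM/SAL lungs against PBS/SAL lungs had 2 called, 1 higher and 1 lower, where 5.44% of all genes were called, 3.19% higher and 2.25% lower. Without the 3 libraries under 60 M, these counts were 14 (15.1% of all genes), 10 (7.17%) and 4 (6.06%). The median log2 fold change of the 41 genes was 0.17 in HDM/CP against PBS/SAL lungs, 0.22 in HDM/CP against PBS/CP lungs and 0.05 in HDM/SAL against PBS/SAL lungs, while the median of all genes was 0.01, 0.00189 and 0.01 in these comparisons. Comparisons that share a group of lungs are not independent, so their values are set side by side only. In whole lung, a change in the number of cells of a type and a change in RNA per cell cannot be told apart.

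Sequence upstream of the start is shown for the gene that moved most, for the most abundant fibrillar chain that was called, for its partner in mixed fibrils and for a chain that was lower under HDM. The windows are the 250 bases before the RefSeq start (GRCm38.p6, each read 5′ to 3′ on the strand of the gene), with capitals marking the motifs searched on either strand. These were the CCAAT box, searched by those letters, then TATAAA, the letters of the TATA box near many regulated starts, and last GGGCGG, the GC box that Sp1 binds; none overlaps another here.
Col6a5, chr9:105960644-105960893, minus strand: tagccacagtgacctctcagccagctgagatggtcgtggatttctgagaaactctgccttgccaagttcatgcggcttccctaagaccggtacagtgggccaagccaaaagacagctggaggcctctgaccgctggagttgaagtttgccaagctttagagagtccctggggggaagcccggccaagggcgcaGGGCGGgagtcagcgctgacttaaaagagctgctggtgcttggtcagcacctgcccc
Col3a1, chr1:45311288-45311537, plus strand: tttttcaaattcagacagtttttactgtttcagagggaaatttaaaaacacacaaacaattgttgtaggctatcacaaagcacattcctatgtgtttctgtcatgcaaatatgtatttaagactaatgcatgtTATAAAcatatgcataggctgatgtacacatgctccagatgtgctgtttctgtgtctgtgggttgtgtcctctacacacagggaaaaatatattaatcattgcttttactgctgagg
Col1a2, chr6:4505368-4505617, plus strand: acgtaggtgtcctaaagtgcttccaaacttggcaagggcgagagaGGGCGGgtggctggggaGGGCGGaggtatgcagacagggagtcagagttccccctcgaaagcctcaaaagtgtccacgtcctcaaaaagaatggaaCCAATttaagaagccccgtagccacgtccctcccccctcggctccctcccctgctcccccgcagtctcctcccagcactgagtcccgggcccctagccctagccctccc
Col23a1, chr11:51289670-51289919, plus strand: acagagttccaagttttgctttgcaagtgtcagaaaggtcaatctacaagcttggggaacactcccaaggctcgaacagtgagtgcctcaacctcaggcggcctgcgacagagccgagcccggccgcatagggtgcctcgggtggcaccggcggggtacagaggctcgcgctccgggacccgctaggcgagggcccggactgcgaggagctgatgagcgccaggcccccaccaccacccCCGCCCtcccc

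The Col6a5 and Col23a1 windows each held 1 match, to GGGCGG, the Col3a1 window held 1 match, to TATAAA, and the Col1a2 window held 1 match to CCAAT and 2 to GGGCGG. RefSeq windows were found for 35 of the 44 genes (38 windows). GGGCGG was in 57.9% of the collagen windows and in 32.7% of all 32851 windows of the same length, CCAAT in 34.2% and 33.8%, and TATAAA in 13.2% and 12.4%. The gapped palindrome that STAT6 binds (TTC and GAA with 4 bases between them) was in none of the 38 collagen windows and in 5.85% of all windows. The genes that were higher in HDM/CP than in PBS/SAL lungs had 13 windows for 11 genes, of which 7 held GGGCGG, 3 held CCAAT and 1 held TATAAA. These are matches of letters and say nothing of whether a factor binds.

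The largest change was that of a type VI chain. Col6a5, the alpha 5 chain, which can take the place of the alpha 3 chain in the trimer, had 1.25 to 9.27 TPM (median 4.83) in HDM/CP lungs, 0.822 to 4.13 TPM (median 1.23) in HDM/SAL lungs, 0.257 to 0.618 TPM (median 0.370) in PBS/CP lungs and 0.207 to 0.405 TPM (median 0.346) in PBS/SAL lungs. Every HDM lung lay above every PBS lung, and each HDM group spread widely, with libraries 45 and 96 the lowest of HDM/CP and library 100 the lowest of HDM/SAL. It was 13.8-fold higher in HDM/CP than in PBS/SAL lungs (log2 3.79 ± 0.43, adjusted p = 2.62e-06), 12.3-fold higher in HDM/CP than in PBS/CP lungs (log2 3.62 ± 0.42, adjusted p = 1.62e-05) and 6.14-fold higher in HDM/SAL than in PBS/SAL lungs (log2 2.62 ± 0.42, adjusted p = 0.000675; standard errors throughout). Its difference between HDM/CP and HDM/SAL lungs was a log2 fold change of 1.17 ± 0.40, which did not pass (adjusted p = 0.288). On the log2(TPM + 1) scale, which compresses low values, its log2 differences were as low as 1.89, 1.83 and 1.06 in these 3 comparisons and were still called. It was a minor chain: Col6a3 exceeded it by a median ratio of 19.3 in HDM/CP lungs, 36.0 in HDM/SAL lungs, 180.0 in PBS/CP lungs and 162.0 in PBS/SAL lungs. The gene lies on chromosome 9 at 105733277 to 105837842, minus strand, in the files' GRCm39 coordinates, between Col6a6 (27.9 kb away) and Col6a4 (28.8 kb away), the other chains of the alpha 3 kind.

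The core chains of type VI moved by smaller amounts. Col6a2, the alpha 2 chain, had 135 to 246 TPM (median 191) in HDM/CP lungs, 115 to 159 TPM (median 143) in HDM/SAL lungs, 113 to 156 TPM (median 121) in PBS/CP lungs and 92.3 to 133 TPM (median 117) in PBS/SAL lungs. Each HDM/CP lung exceeded every PBS/SAL lung, and HDM/CP library 96 came closest. Col6a2 was 1.65-fold higher in HDM/CP than in PBS/SAL lungs (log2 0.73 ± 0.10, adjusted p = 1.63e-05) and 1.54-fold higher in HDM/CP than in PBS/CP lungs (log2 0.62 ± 0.10, adjusted p = 0.00025). In HDM/SAL against PBS/SAL lungs its log2 fold change was 0.31 ± 0.10 (adjusted p = 0.0666), and it was called without the libraries under 60 M (0.39 ± 0.11, adjusted p = 0.0359). Col6a2 was also called there without HDM/CP library 96 or 97. With all libraries, DESeq2 and voom with quality weights called it, where they called 2009 and 1753 of 24629 genes. Col6a1, the alpha 1 chain, had 184 to 324 TPM (median 251) in HDM/CP lungs, 164 to 223 TPM (median 192) in HDM/SAL lungs, 174 to 229 TPM (median 183) in PBS/CP lungs and 142 to 209 TPM (median 171) in PBS/SAL lungs. It rose 1.44-fold in HDM/CP against PBS/SAL lungs (log2 0.52 ± 0.09, adjusted p = 0.000187) and 1.37-fold against PBS/CP lungs (log2 0.45 ± 0.09, adjusted p = 0.00194), although the groups overlapped. Col6a3, whose chain carries the endotrophin fragment at its end, had 50.9 to 93 TPM (median 70.7) in HDM/CP lungs, 41.9 to 61.2 TPM (median 52.4) in HDM/SAL lungs, 52.8 to 83.4 TPM (median 56.6) in PBS/CP lungs and 37.7 to 65 TPM (median 48.4) in PBS/SAL lungs. It rose in HDM/CP against PBS/SAL lungs (log2 0.49 ± 0.11, adjusted p = 0.00349), and against PBS/CP lungs its log2 fold change was 0.25 ± 0.11 (adjusted p = 0.197). Col6a6 had 0.132 to 0.323 TPM (median 0.192) in HDM/CP lungs, 0.0476 to 0.202 TPM (median 0.116) in HDM/SAL lungs, 0.136 to 0.203 TPM (median 0.166) in PBS/CP lungs and 0.108 to 0.333 TPM (median 0.196) in PBS/SAL lungs, and edgeR did not call it in any comparison. Col6a4 averaged 0.448 TPM over all libraries and was not called either.

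Of the 11 fibrillar chains, 7 were higher in HDM/CP than in PBS/SAL lungs and none was lower, against 8.61% of all genes called higher in that comparison. The median log2 fold change of the class was 0.59. Col3a1, the chain of the homotrimeric type III, had 237 to 520 TPM (median 433) in HDM/CP lungs, 161 to 321 TPM (median 262) in HDM/SAL lungs, 198 to 278 TPM (median 218) in PBS/CP lungs and 110 to 376 TPM (median 180) in PBS/SAL lungs. Library 96 was again the lowest HDM/CP lung, and PBS/SAL library 105 exceeded 3 HDM/CP lungs. Col3a1 rose 2.00-fold in HDM/CP against PBS/SAL lungs (log2 1.00 ± 0.21, adjusted p = 0.00197) and 1.75-fold against PBS/CP lungs (log2 0.81 ± 0.21, adjusted p = 0.0182). Without the libraries under 60 M its log2 fold change against PBS/SAL lungs was 1.4 ± 0.18 in HDM/CP lungs, and in HDM/SAL lungs it was 0.79 ± 0.18 and called (adjusted p = 0.0111), against 0.39 ± 0.22 and not called with all libraries (adjusted p = 0.339). The libraries left out include 104 and 105, the highest of the PBS/SAL group for Col3a1, so a rise of these values was built in.

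Type I collagen followed with smaller fold changes. Col1a1 had 112 to 240 TPM (median 190) in HDM/CP lungs, 86.3 to 142 TPM (median 128) in HDM/SAL lungs, 106 to 156 TPM (median 122) in PBS/CP lungs and 70.4 to 220 TPM (median 105) in PBS/SAL lungs. It was higher in HDM/CP than in PBS/SAL lungs (log2 0.70 ± 0.19, adjusted p = 0.0148, and 1.04 ± 0.15 without the libraries under 60 M). Against PBS/CP lungs the value of 0.54 ± 0.19 did not pass (adjusted p = 0.0880). Col1a1 was called against PBS/CP lungs without the libraries under 60 M (0.58 ± 0.14, adjusted p = 0.0142). The fit of the HDM/CP and PBS/CP libraries alone called it too, as did the fits without HDM/CP library 96 or PBS/SAL library 105. Fitted to the HDM/CP and PBS/SAL libraries alone, the call against PBS/SAL lungs was lost (adjusted p = 0.0797). Col1a2, its partner chain, had 190 to 362 TPM (median 311) in HDM/CP lungs, 159 to 243 TPM (median 214) in HDM/SAL lungs, 198 to 255 TPM (median 208) in PBS/CP lungs and 161 to 322 TPM (median 212) in PBS/SAL lungs. The groups overlapped, and 6 of 7 HDM/CP lungs exceeded the PBS/SAL median. Col1a2 rose in HDM/CP against PBS/SAL lungs (log2 0.44 ± 0.14, adjusted p = 0.0280) and against PBS/CP lungs (log2 0.45 ± 0.14, adjusted p = 0.0418), and without the libraries under 60 M the first of these values was 0.64 ± 0.12. The calls held in 30 and 25 of 40 alternative settings of the test.

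Type V collagen sets the diameter of type I fibrils, and its 3 chains were all called higher in HDM/CP than in PBS/SAL lungs. Col5a2 had 37.8 to 74.8 TPM (median 56) in HDM/CP lungs, 25.7 to 46.3 TPM (median 38.7) in HDM/SAL lungs, 29.8 to 40.1 TPM (median 32.8) in PBS/CP lungs and 20.8 to 43.6 TPM (median 30.3) in PBS/SAL lungs. It rose 1.83-fold in HDM/CP against PBS/SAL lungs (log2 0.88 ± 0.16, adjusted p = 0.000318) and 1.66-fold against PBS/CP lungs (log2 0.73 ± 0.16, adjusted p = 0.00369), and 6 of 7 HDM/CP lungs exceeded every PBS/CP lung. Col5a1 had 18.8 to 30.2 TPM (median 23.8) in HDM/CP lungs, 14.9 to 23.1 TPM (median 19.9) in HDM/SAL lungs, 20.2 to 27.1 TPM (median 22.8) in PBS/CP lungs and 13.3 to 26.8 TPM (median 18.6) in PBS/SAL lungs. Its rise in HDM/CP against PBS/SAL lungs was smaller (log2 0.37 ± 0.12, adjusted p = 0.0322). It was 0.53 ± 0.11 without the libraries under 60 M, and the call held in 30 of 40 alternative settings. Col5a3 had 1.96 to 4.47 TPM (median 2.48) in HDM/CP lungs, 1.74 to 2.68 TPM (median 2.36) in HDM/SAL lungs, 1.94 to 2.53 TPM (median 2.20) in PBS/CP lungs and 1.03 to 3.53 TPM (median 1.68) in PBS/SAL lungs. Its log2 fold change of 0.59 ± 0.20 in HDM/CP against PBS/SAL lungs was just called (adjusted p = 0.0486) and held in 14 of 40 alternative settings. The call was lost, for example, without the libraries under 60 M (0.62 ± 0.24, adjusted p = 0.0780).

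Col24a1, a minor fibrillar chain of developing bone and cornea, had 0.133 to 1.30 TPM (median 0.655) in HDM/CP lungs, 0.135 to 0.398 TPM (median 0.315) in HDM/SAL lungs, 0.0767 to 0.257 TPM (median 0.197) in PBS/CP lungs and 0.0881 to 0.371 TPM (median 0.167) in PBS/SAL lungs. HDM/CP libraries 45, 66 and 96 lay within the PBS range and the other 4 above it. It was 2.86-fold higher in HDM/CP than in PBS/SAL lungs (log2 1.51 ± 0.41, adjusted p = 0.0110) and 2.59-fold higher than in PBS/CP lungs (log2 1.37 ± 0.41, adjusted p = 0.0343). The second of these calls was lost in 12 of 38 alternative settings, among them the fit with the run of library numbers as a covariate (adjusted p = 0.051). The other fibrillar chains, Col27a1 (mean 11.1 TPM), Col11a2 (1.36 TPM), Col11a1 and Col2a1, were not called by edgeR in any comparison.

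**Figure D3:**
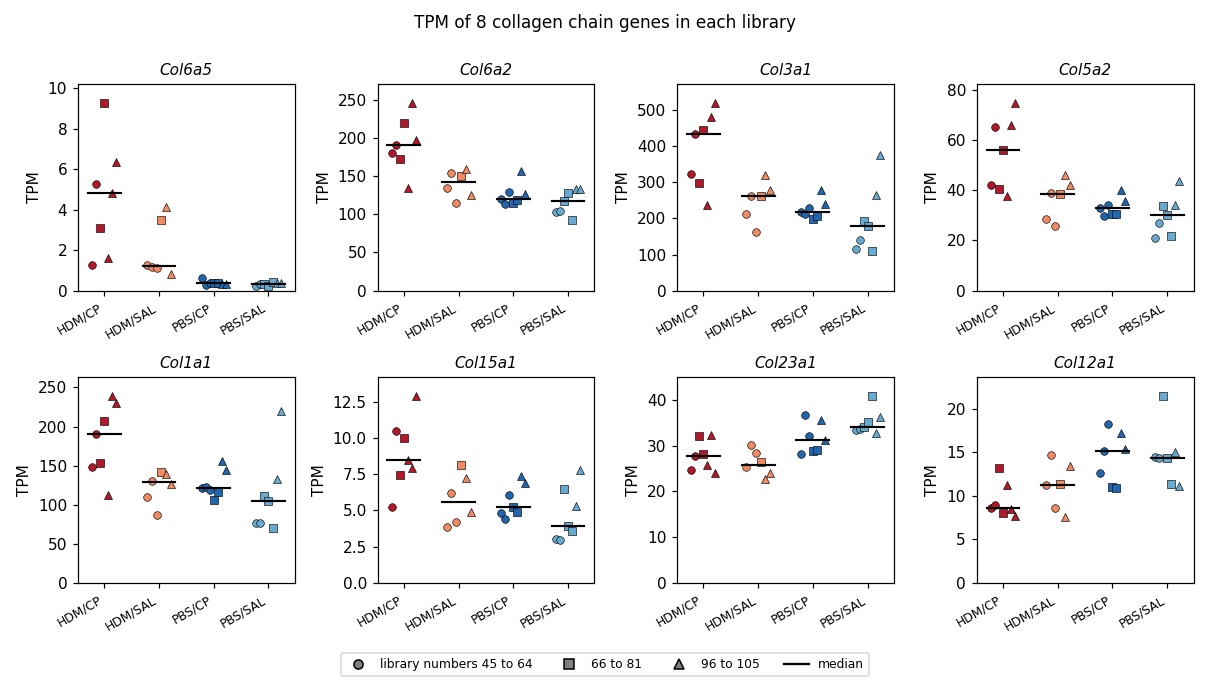
TPM of Col6a5, Col6a2, Col3a1, Col5a2, Col1a1, Col15a1, Col23a1 and Col12a1 in each library of the HDM/CP, HDM/SAL, PBS/CP and PBS/SAL groups, on linear axes from 0; each point is a library, its shape gives the run of library numbers, and the bar is the group median. Col6a5 separates the HDM lungs (0.822 TPM and above) from the PBS lungs (0.618 TPM and below), Col23a1 is lower in both HDM groups than in PBS/SAL lungs, and the other genes overlap between at least some of the groups.

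Of the basement membrane collagens, edgeR called the multiplexin chains Col15a1 and Col18a1, which are proteoglycans of the basement membrane zone and the sources of restin and endostatin. It called none of the type IV chains, although the log2 fold change of Col4a1 was close to that of Col18a1. Col15a1 had 5.25 to 12.9 TPM (median 8.47) in HDM/CP lungs, 3.87 to 8.16 TPM (median 5.55) in HDM/SAL lungs, 4.43 to 7.40 TPM (median 5.26) in PBS/CP lungs and 2.99 to 7.78 TPM (median 3.91) in PBS/SAL lungs. It was 1.90-fold higher in HDM/CP than in PBS/SAL lungs (log2 0.93 ± 0.21, adjusted p = 0.00264) and 1.58-fold higher than in PBS/CP lungs (log2 0.66 ± 0.21, adjusted p = 0.0470), the second call holding in 22 of 40 alternative settings. Col18a1 had 21.3 to 36.5 TPM (median 30.8) in HDM/CP lungs, 18.5 to 25.5 TPM (median 23.5) in HDM/SAL lungs, 22.1 to 31 TPM (median 24.1) in PBS/CP lungs and 20.2 to 31.2 TPM (median 22.2) in PBS/SAL lungs. It rose in HDM/CP against PBS/SAL lungs (log2 0.34 ± 0.09, adjusted p = 0.0122).

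Type IV collagen was the most abundant of the lung. Col4a1 had 253 to 407 TPM (median 301) in HDM/CP lungs, 155 to 371 TPM (median 258) in HDM/SAL lungs, 212 to 325 TPM (median 275) in PBS/CP lungs and 212 to 293 TPM (median 258) in PBS/SAL lungs. Col4a2 had 228 to 318 TPM (median 276) in HDM/CP lungs, 147 to 305 TPM (median 221) in HDM/SAL lungs, 192 to 304 TPM (median 262) in PBS/CP lungs and 209 to 268 TPM (median 240) in PBS/SAL lungs. These chains make the trimer found in nearly all basement membranes, and HDM/SAL library 54 was the lowest for both. In HDM/CP against PBS/SAL lungs the log2 fold change was 0.33 ± 0.12 for Col4a1 (adjusted p = 0.0690) and 0.19 ± 0.10 for Col4a2. Col4a1 was called in this comparison by DESeq2, where 17.1% of all genes were called, by voom with quality weights, where 17.7% were, by the fit of the HDM/CP and PBS/SAL libraries alone, and without HDM/CP library 45, HDM/SAL library 54 or HDM/SAL library 100. Col4a3, Col4a4 and Col4a5, the chains of the trimer of the alveolar and glomerular basement membrane, averaged 65, 42.2 and 39.8 TPM over all libraries, and their log2 fold changes in HDM/CP against PBS/SAL lungs were -0.13 ± 0.15, -0.04 ± 0.08 and -0.09 ± 0.08. Col4a6 (mean 8.13 TPM) and Col7a1 (mean 6.10 TPM), the chain of the anchoring fibrils, were not called by edgeR in any comparison. The type IV genes sit in pairs with their starts facing each other: Col4a1 and Col4a2 overlap by 22 bases on chromosome 8, Col4a4 and Col4a3 lie 71 bases apart on chromosome 1, and Col4a6 and Col4a5 lie 1308 bases apart on chromosome X (GRCm39). No source says that strand was used in counting, so reads from the shared bases of Col4a1 and Col4a2 cannot be assigned.

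Among the FACIT chains, which sit on the surface of fibrils, Col12a1 fell and no gene rose. Col12a1 had 7.65 to 13.2 TPM (median 8.59) in HDM/CP lungs, 7.57 to 14.7 TPM (median 11.2) in HDM/SAL lungs, 10.9 to 18.2 TPM (median 15.1) in PBS/CP lungs and 11.2 to 21.5 TPM (median 14.3) in PBS/SAL lungs. It fell in HDM/CP against PBS/SAL lungs (log2 -0.62 ± 0.16, adjusted p = 0.00802) and against PBS/CP lungs (log2 -0.57 ± 0.16, adjusted p = 0.0232), with all 7 HDM/CP lungs below both medians. The second call held in 34 of 40 alternative settings. The ratio of Col12a1 to Col1a1 had a median of 0.0470 in HDM/CP lungs, 0.101 in HDM/SAL lungs, 0.106 in PBS/CP lungs and 0.162 in PBS/SAL lungs. Col16a1 had 19.4 to 25 TPM (median 20.2) in HDM/CP lungs, 14.6 to 21.3 TPM (median 18.8) in HDM/SAL lungs, 17.1 to 26 TPM (median 21.2) in PBS/CP lungs and 17.8 to 23.5 TPM (median 21.3) in PBS/SAL lungs. Col14a1 had 13.6 to 24.3 TPM (median 20.7) in HDM/CP lungs, 11.2 to 23 TPM (median 18) in HDM/SAL lungs, 13.1 to 21.1 TPM (median 17.3) in PBS/CP lungs and 14.4 to 21.8 TPM (median 20.1) in PBS/SAL lungs. Neither was called by edgeR in any comparison, nor were Col20a1, Col9a3 and Col22a1, which averaged 2.55, 1.4 and 0.1 TPM. Voom with quality weights called Col22a1 higher in HDM/CP than in PBS/SAL lungs.

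The transmembrane chains had negative log2 fold changes in 4 of 4 genes, both in HDM/CP against PBS/SAL lungs (median -0.21) and in HDM/SAL against PBS/SAL lungs (median -0.27), and 1 of the 4 was called. Col23a1 had 24.1 to 32.3 TPM (median 27.7) in HDM/CP lungs, 22.7 to 30.2 TPM (median 25.8) in HDM/SAL lungs, 28.3 to 36.7 TPM (median 31.3) in PBS/CP lungs and 32.8 to 41 TPM (median 34.2) in PBS/SAL lungs. No lung of either HDM group reached the lowest PBS/SAL lung. Col23a1 fell in HDM/SAL against PBS/SAL lungs (log2 -0.38 ± 0.08, adjusted p = 0.00357) and in HDM/CP against PBS/SAL lungs (log2 -0.32 ± 0.07, adjusted p = 0.00285). In HDM/CP against PBS/CP lungs, whose ranges overlapped, its log2 fold change was -0.16 ± 0.07 (adjusted p = 0.199). Col13a1, a chain of cell adhesion sites, had 43.5 to 58 TPM (median 48.3) in HDM/CP lungs, 37.4 to 53.5 TPM (median 44) in HDM/SAL lungs, 51.6 to 68.8 TPM (median 51.9) in PBS/CP lungs and 40.2 to 56.1 TPM (median 51.2) in PBS/SAL lungs, and was not called by edgeR. Col17a1, the hemidesmosome collagen of basal epithelium, averaged 3.05 TPM and Col25a1 averaged 0.129 TPM, and neither was called.

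The short-chain network collagens and the 2 remaining genes had no call by edgeR in any comparison of all libraries. Without HDM/CP library 45, edgeR called Col8a1 higher in HDM/CP than in PBS/SAL lungs, where it called 3692 of 24552 genes. It also called Col8a1 higher for combustion products averaged over HDM and PBS mice, where it called 102 of 24552 genes. Col8a1 had 5.37 to 9.92 TPM (median 8.74) in HDM/CP lungs, 5.11 to 8.14 TPM (median 6.14) in HDM/SAL lungs, 6.75 to 10.3 TPM (median 7.85) in PBS/CP lungs and 5.55 to 7.77 TPM (median 6.66) in PBS/SAL lungs. Col8a2, its partner in type VIII collagen, had 3.79 to 9.02 TPM (median 6.02) in HDM/CP lungs, 5.85 to 10.1 TPM (median 7.15) in HDM/SAL lungs, 6.60 to 8.56 TPM (median 6.86) in PBS/CP lungs and 5.65 to 9.23 TPM (median 7.60) in PBS/SAL lungs. The ranges of both genes overlapped in all groups. Col28a1 had 0.540 to 1.99 TPM (median 0.650) in HDM/CP lungs, 0.395 to 1.53 TPM (median 0.890) in HDM/SAL lungs, 0.238 to 2.38 TPM (median 0.983) in PBS/CP lungs and 0.361 to 1.62 TPM (median 1.17) in PBS/SAL lungs. Col26a1 had 0.260 to 1.58 TPM (median 0.949) in HDM/CP lungs, 0.319 to 2.29 TPM (median 1.16) in HDM/SAL lungs, 0.501 to 1.02 TPM (median 0.727) in PBS/CP lungs and 0.358 to 1.04 TPM (median 0.751) in PBS/SAL lungs.

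**Figure D4:**
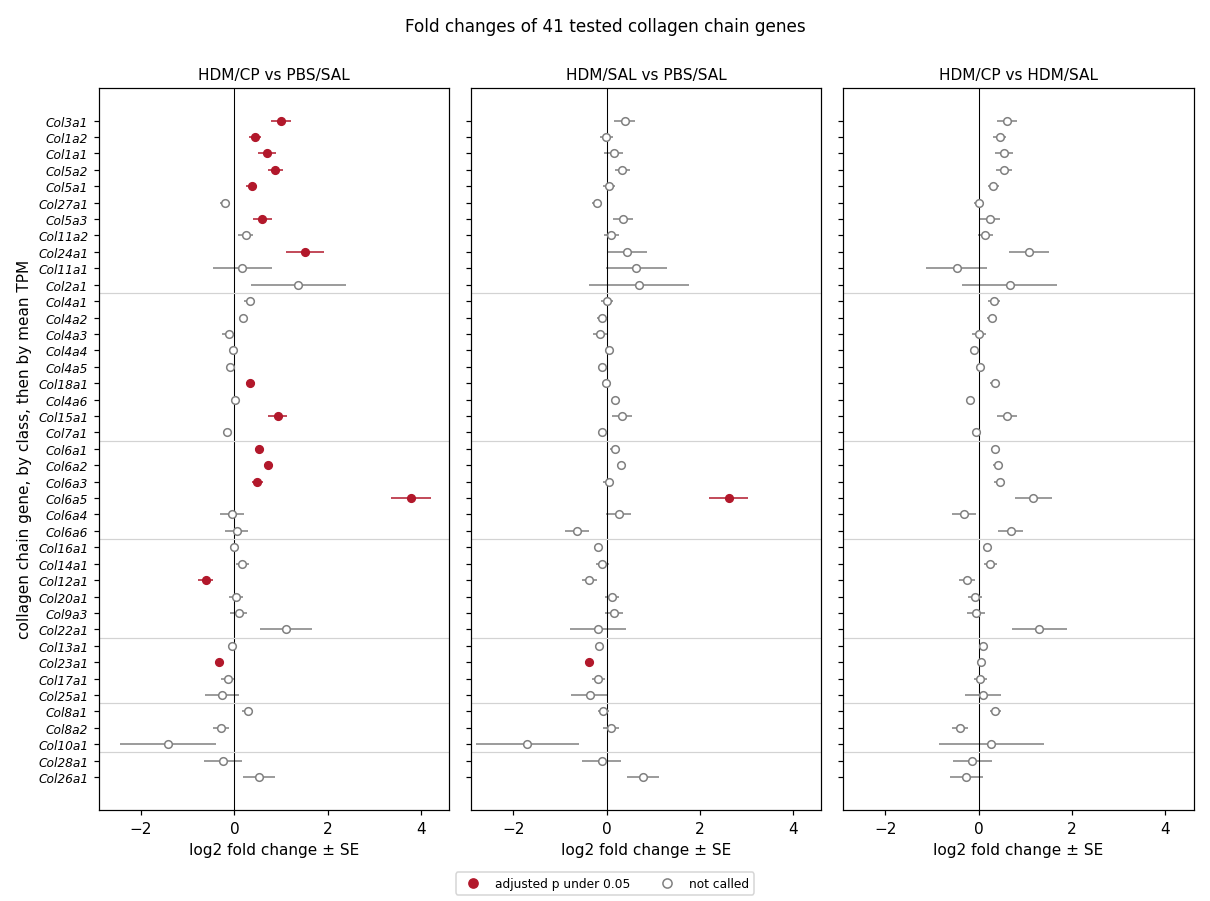
Log2 fold change with its standard error for each of the 41 tested collagen chain genes in HDM/CP against PBS/SAL, HDM/SAL against PBS/SAL and HDM/CP against HDM/SAL lungs, by class and by falling level; filled points have an adjusted p under 0.05. The 15 filled points of the first panel are 13 higher and 2 lower, the second panel has 2 (Col6a5 and Col23a1), and the third has 0.

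The design also asked what combustion products do with and without allergen. PBS/CP against PBS/SAL lungs had 0 of 41 collagen genes called by edgeR, where 0.00812% of all genes were called, and 0 by DESeq2 (0.13% of all genes) and by limma voom with quality weights (0.0406%). At an unadjusted p under 0.05 there were 5, against 5.45% of all genes, with Col8a1 at the smallest p (log2 0.26 ± 0.12, adjusted p = 0.876). HDM/CP against HDM/SAL lungs also had 0 called by edgeR, where 0.00406% of all genes were called, and 0 by voom (0.0122%). At an unadjusted p under 0.05 there were 19 of 41, against 9.7% of all genes, and 30 of the 41 log2 fold changes were positive with a median of 0.25, against a median of -0.00145 over all genes. Markers of other cells moved in the same comparison, with none called. For neutrophils, 6 of 6 markers were positive (median 1.03, 5 at an unadjusted p under 0.05). Of the club cell markers, 6 of 6 were negative (median -0.39, 4 at an unadjusted p under 0.05). The ciliated cell markers were negative in 6 of 6 (median -0.32, 0 at an unadjusted p under 0.05). Macrophage markers were positive in 7 of 8 (median 0.51, 4 at that p). Fibroblast markers were positive in 8 of 12 (median 0.05, 3 at that p). Negative values were found for 8 of 8 heart muscle markers (median -0.73, 2 at that p) and 5 of 6 chondrocyte markers (median -0.39, 3 at that p). HDM/SAL library 54, the lowest of its group in summed collagen, was the highest of its group for the club cell and ciliated cell markers. The part of these cells in the collagen values was not tested. Col6a2 had the smallest p (log2 0.41 ± 0.10, adjusted p = 0.148), followed by Col6a3 (log2 0.45 ± 0.12, adjusted p = 0.170) and Col6a1 (log2 0.35 ± 0.09, adjusted p = 0.171). DESeq2 called Col5a2, Col6a1, Col6a2 and Col6a3 higher in HDM/CP than in HDM/SAL lungs, 4 of 41, where it called 0.78% of all genes.

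With the effect of combustion products averaged over HDM and PBS mice, edgeR called 0 of 41, where 0.0487% of all genes were called (0.0406% higher), and DESeq2 called 3 (Col6a2, Col6a3 and Col8a1), where it called 0.715% of all genes. Voom called 0, against 0.122% of all genes. At an unadjusted p under 0.05 there were 17, against 8.84% of all genes. Col6a3 had the smallest p, with a log2 fold change of 0.34 ± 0.08 (adjusted p = 0.117). Without the libraries under 60 M, edgeR called Col3a1 (log2 0.59 ± 0.12, adjusted p = 0.0467), 1 of 41 against 0.133% of all genes. The libraries left out include PBS/SAL libraries 104 and 105, the highest of their group for this gene. Whether the effect of combustion products differed between HDM and PBS mice was tested by the interaction, which had 0 collagen genes called by edgeR, DESeq2 and voom, with 0% of all genes called by edgeR and by voom and 0.0244% by DESeq2. At an unadjusted p under 0.05 there were 5, against 6.38% of all genes, with Col6a6 at the smallest p (log2 difference 0.98 ± 0.36, adjusted p = 0.761). For Col6a5 the difference was 1.01 ± 0.57 (adjusted p = 0.802) and for Col1a2 it was 0.45 ± 0.20 (adjusted p = 0.776), so a difference in the response was not shown for any collagen gene.

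Within the runs of library numbers, the genes called in each comparison kept their sign: 15 of 15 in HDM/CP against PBS/SAL, 9 of 9 in HDM/CP against PBS/CP and 2 of 2 in HDM/SAL against PBS/SAL lungs. These genes were called from the same libraries, so their shared sign is a description and not a separate test. The size differed for fibrillar chains. In HDM/CP against PBS/SAL lungs, the log2 difference of Col1a1 was 1.20 in libraries 45 to 64, 0.89 in 66 to 81 and 0.10 in 96 to 105. For Col1a2 it was 0.82, 0.49 and 0.03, for Col5a1 it was 0.54, 0.43 and 0.05, and for Col3a1 it was 1.62, 1.19 and 0.31. Col6a5 had 3.33, 4.02 and 3.25, and Col23a1 had -0.28, -0.31 and -0.33, without such a drop in the last run. The last run holds 3 HDM/CP libraries, with 96 among them, and 2 PBS/SAL libraries, 104 and 105, both under 60 M; their part in these values was not tested. With the run as a covariate, edgeR called 15, 8 and 2 collagen genes in these comparisons. Of all 24629 genes it then called 3375, 1867 and 939, against 3567, 1938 and 1339 without the covariate.

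Among the ratios of chains that share a trimer, only that of Col6a1 to Col6a2 separated all HDM from all PBS lungs. The TPM ratio of Col6a1 to Col6a2 was 1.24 to 1.43 (median 1.32) in HDM/CP lungs, 1.34 to 1.43 (median 1.4) in HDM/SAL lungs, 1.44 to 1.58 (median 1.5) in PBS/CP lungs and 1.46 to 1.59 (median 1.54) in PBS/SAL lungs, so the HDM and PBS lungs did not overlap. The ratio of Col5a2 to Col5a1 was 1.76 to 2.54 (median 2.23) in HDM/CP lungs, 1.69 to 2.34 (median 1.77) in HDM/SAL lungs, 1.33 to 1.48 (median 1.47) in PBS/CP lungs and 1.12 to 1.81 (median 1.62) in PBS/SAL lungs. Here the HDM groups lay above PBS/CP lungs and overlapped PBS/SAL lungs. The ratio of Col4a1 to Col4a2 had medians of 1.15 in HDM/CP lungs, 1.11 in HDM/SAL lungs, 1.07 in PBS/CP lungs and 1.06 in PBS/SAL lungs, with overlapping ranges. The ratio of Col1a1 to Col1a2, the chains of type I, was 0.587 to 0.662 (median 0.622) in HDM/CP lungs, 0.542 to 0.615 (median 0.598) in HDM/SAL lungs, 0.537 to 0.621 (median 0.580) in PBS/CP lungs and 0.437 to 0.685 (median 0.477) in PBS/SAL lungs. The ratio of Col6a1 to Col6a3, the third chain of the type VI trimer, was 3.08 to 3.96 in HDM/CP lungs and 3.14 to 4.25 in HDM/SAL lungs. It was 2.75 to 3.49 in PBS/CP lungs and 3.06 to 4.0 in PBS/SAL lungs, so all groups overlapped. The ratios of Col4a3 to Col4a4 and of Col4a5 to Col4a6 also overlapped between all groups. These ratios are descriptions and were not tested.

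**Figure D5:**
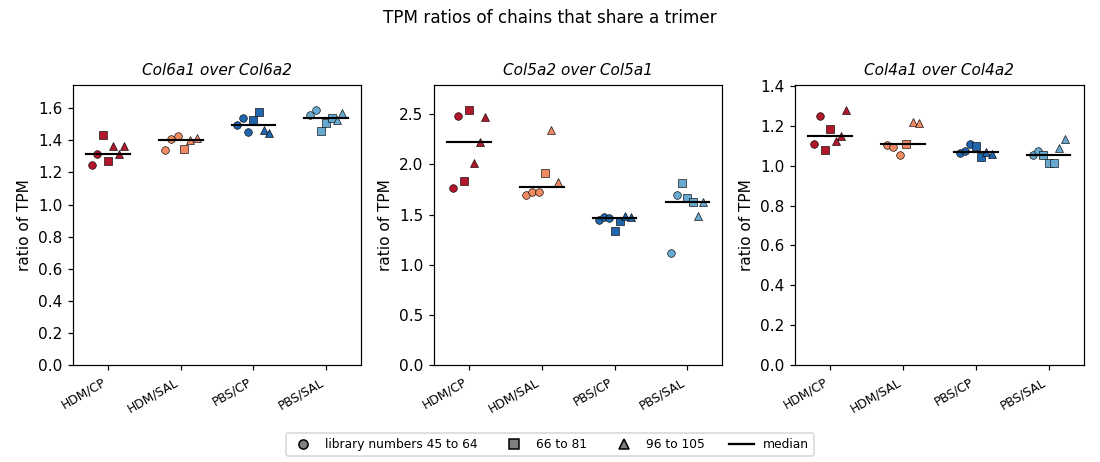
TPM ratios of chains that share a trimer (Col6a1 over Col6a2, Col5a2 over Col5a1 and Col4a1 over Col4a2) in each library, by group, on axes from 0; each point is a library, its shape gives the run of library numbers, and the bar is the group median. Col6a1 over Col6a2 was at most 1.43 in HDM lungs and at least 1.44 in PBS lungs.

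Genes that act on collagen after translation, outside the cell or upstream of it were read from lists. In HDM/CP against PBS/SAL lungs, the collagen degradation and uptake list had 9 of 14 genes higher and 2 lower (8.61% and 5.88% of all genes), with a median log2 fold change of 0.65 against 0.01 over all genes. The smallest p-values were those of Timp1, an inhibitor of metalloproteinases (log2 2.15 ± 0.30, adjusted p = 2.54e-05), Mmp8, the neutrophil collagenase (2.52 ± 0.35, adjusted p = 2.60e-05), Ctsb, a lysosomal protease (0.66 ± 0.10), and Mrc1, the macrophage mannose receptor (1.06 ± 0.17). In HDM/SAL against PBS/SAL lungs 1 gene of this list was higher (Mrc1, 0.59 ± 0.17) and 3 were lower (Mfge8, -0.31 ± 0.06, Timp3, -0.49 ± 0.12, and Timp2, -0.20 ± 0.06), where 3.19% and 2.25% of all genes were. HDM/CP against PBS/CP lungs had 7 higher, where 5.6% of all genes were, led by Ctsb (0.64 ± 0.10), Mmp8 (1.97 ± 0.34), Mrc1 (0.95 ± 0.17) and Timp1 (1.54 ± 0.29). Mmp8 was the 1 gene of all the lists called in a test of combustion products, with their effect averaged over HDM and PBS mice (log2 1.28 ± 0.25, adjusted p = 0.0464). In the same test 6 of 6 neutrophil markers were positive (median 0.48, 3 at an unadjusted p under 0.05, none called). Their summed level was 144 to 631 TPM (median 256) in HDM/CP lungs, 111 to 205 TPM (median 165) in HDM/SAL lungs, 130 to 279 TPM (median 154) in PBS/CP lungs and 101 to 281 TPM (median 160) in PBS/SAL lungs. The part of neutrophils in this result was not tested.

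Of the 21 genes of collagen hydroxylation and folding, 6 were higher and 2 lower in HDM/CP than in PBS/SAL lungs, where 8.61% and 5.88% of all genes were, with a median of 0.03. P4hb, the shared subunit of prolyl hydroxylase, had a log2 fold change of 0.19 ± 0.04, and P4ha3, a catalytic subunit, had 0.73 ± 0.18. Colgalt2, a collagen galactosyltransferase, had -0.31 ± 0.07 and Plod2, a lysyl hydroxylase, had -0.34 ± 0.09, all 4 at adjusted p-values of 0.004 to 0.00696. Colgalt1 (0.18 ± 0.05) and Plod3 (0.23 ± 0.07) were higher in HDM/CP than in PBS/CP lungs, and Colgalt2 (-0.28 ± 0.07) and Plod2 (-0.30 ± 0.09) were lower. In HDM/SAL against PBS/SAL lungs edgeR called 0 of the 21, and 5 had an unadjusted p under 0.05, against 5.44% of all genes called and 20% at that unadjusted p. Of the 14 tested genes of procollagen processing and cross-linking, 4 were higher and 1 lower in HDM/CP than in PBS/SAL lungs, against the same 8.61% and 5.88% of all genes. The 4 were the lysyl oxidases Lox (0.70 ± 0.19), Loxl1 (0.67 ± 0.14) and Loxl2 (0.35 ± 0.11) and the procollagen peptidase Adamts2 (0.43 ± 0.15). Pcolce2, an enhancer of procollagen processing, was lower in HDM/CP (-0.67 ± 0.12) and in HDM/SAL (-0.43 ± 0.12) than in PBS/SAL lungs. Lox was also higher (0.62 ± 0.19) and Pcolce2 lower (-0.50 ± 0.12) in HDM/CP than in PBS/CP lungs.

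The 20 fibril-associated proteoglycans and glycoproteins moved in both directions, with 3 higher and 4 lower in HDM/CP than in PBS/SAL lungs (8.61% and 5.88% of all genes). Tnc, tenascin C (1.44 ± 0.27), and Fn1, fibronectin (0.61 ± 0.13), rose, and Tnxb, tenascin X (-0.61 ± 0.14), and Lum, lumican (-0.53 ± 0.16), fell. Against PBS/CP lungs, Fn1 (0.66 ± 0.13) and Tnc (1.13 ± 0.27) were higher and Tnxb (-0.55 ± 0.14) lower in HDM/CP lungs. In HDM/SAL against PBS/SAL lungs none of the 20 was higher and 6 were lower, against 2.25% of all genes called lower. The smallest p-values were those of the matrix protein genes Fbln2 (-0.53 ± 0.12), Dcn, the proteoglycan decorin (-0.56 ± 0.14), Tnxb (-0.54 ± 0.14) and Aebp1 (-0.36 ± 0.10). Basement membrane partners had 1 of 18 higher and 1 lower in HDM/CP than in PBS/SAL lungs, a share near that of all genes (8.61% and 5.88%). These were the laminin chain genes Lama1 (1.53 ± 0.35) and Lamb2 (-0.20 ± 0.05). Lamb2 was lower in HDM/SAL than in PBS/SAL lungs too (-0.22 ± 0.05). Collagen receptors had 1 of 12 higher in HDM/CP lungs, also near the share of all genes. It was Lair1, an inhibitory receptor of leukocytes, with 0.55 ± 0.16 against PBS/SAL lungs and 0.64 ± 0.16 against PBS/CP lungs. Of 20 genes of TGF-beta and fibrogenic signals, 3 were higher and 2 lower in HDM/CP than in PBS/SAL lungs, against the same 8.61% and 5.88%. Il13, the type 2 cytokine (4.59 ± 0.82), Tgfbi (0.91 ± 0.13) and Il1b (0.96 ± 0.27) were higher, and Ccn2 (-0.46 ± 0.12) and Ski (-0.22 ± 0.06) were lower. Tgfbi (0.87 ± 0.13) and Il13 (3.24 ± 0.74) were also higher in HDM/CP than in PBS/CP lungs. Il13 was higher in HDM/SAL than in PBS/SAL lungs (3.82 ± 0.83), and Ccn2 (-0.47 ± 0.12), Pdgfrb (-0.37 ± 0.10) and Ski (-0.21 ± 0.06) were lower.

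Markers of the cells that make or border on collagen also differed between the groups. Their counts in HDM/CP against PBS/SAL lungs stand against 8.61% of all genes called higher and 5.88% called lower. Of 12 fibroblast markers, 1 was higher (Mfap4, 0.66 ± 0.18) and 4 were lower in HDM/CP than in PBS/SAL lungs (Inmt, -0.86 ± 0.16, Tcf21, -0.52 ± 0.11, Itga8, -0.58 ± 0.15, and Ces1d, -0.39 ± 0.09). Their summed level was 3960 to 6400 TPM in HDM/CP lungs, 4450 to 5500 TPM in HDM/SAL lungs, 5440 to 6800 TPM in PBS/CP lungs and 6210 to 7540 TPM in PBS/SAL lungs, so the HDM groups lay lower. HDM/SAL lungs had 0 of the 12 higher and 3 lower than PBS/SAL lungs, where 3.19% and 2.25% of all genes were. Of 9 myofibroblast and smooth muscle markers, Acta2 (0.76 ± 0.16), Actg2 (1.03 ± 0.19) and Tagln (0.45 ± 0.11) were higher in HDM/CP than in PBS/SAL lungs. Their summed level was 702 to 1070 TPM in HDM/CP lungs, 662 to 907 TPM in HDM/SAL lungs, 448 to 810 TPM in PBS/CP lungs and 454 to 743 TPM in PBS/SAL lungs. Of 8 macrophage markers, 4 were higher and 1 lower in HDM/CP than in PBS/SAL lungs, and their summed level was 1740 to 6030 TPM in HDM/CP lungs, 1510 to 3330 TPM in HDM/SAL lungs, 420 to 794 TPM in PBS/CP lungs and 358 to 877 TPM in PBS/SAL lungs. Mrc1 stands in this list and in the uptake list. Of 8 alveolar type 1 markers 4 were lower in HDM/CP than in PBS/SAL lungs, with sums of 3950 to 5920 TPM and 5250 to 6850 TPM. Of 8 endothelial markers 3 were lower, with sums of 2360 to 2790 TPM and 2640 to 3000 TPM. Of the 6 tested chondrocyte markers, 2 were higher and 1 lower in HDM/CP than in PBS/SAL lungs. In HDM/SAL against PBS/SAL lungs 2 of these 6 were higher and 0 lower. No marker of these lists was at 0 in all libraries. The part of these cell types in the collagen results was not tested.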

How the data were processed

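Whole-lung polyA RNA was sequenced in 27 mice. Per the submitters' processing notes, the authors used STAR and StringTie 2 with GRCm39. The authors deposited a table of estimated counts and a table of TPM for 56941 genes. No source used here says how strand was treated in counting, and paralogs may share reads. The deposited estimated counts were whole and summed to 56.3 M to 84.5 M per library. Divided by 4, which gave 14.1 M to 21.1 M, they served as an alternative. The 310 genes without a symbol held 0.0602% of the counts and were not removed before the tests.

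Counts of all 27 libraries were fitted together with edgeR 4.0.16 in R 4.3.3 (TMM factors, filterByExpr with a minimum count of 10, robust quasi-likelihood F test, Benjamini-Hochberg adjustment over 24629 genes), for 7 comparisons. The fit was also run on simulated counts that gave every gene the same spread between libraries and had no outlying libraries. Such a run does not show how the fit performs on these libraries. Levels and ratios are the deposited TPM. Alternatives were DESeq2 1.42.0, limma 3.58.1 (voom with quality weights, and log2 TPM), other filters and scalings, the run of library numbers as a covariate, and leaving out libraries. Values per group are given for genes called in any comparison, the 2 most abundant of each class and the smallest p of each comparison. From each pathway list, the called genes are named where 5 or fewer were called, and otherwise the 4 of smallest p. The members and lists were chosen with earlier results of these data known. The reference sequence in use is of another build, so coordinates of genes are GRCm39 and those of promoters GRCm38.p6.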

Additional observations from a re-analysis of the deposited data

Results flagged for a closer look

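In 16 of the 164 sets that a tested collagen gene and a group make, 1 library lay far from the others of its group on the log2 CPM scale (Dixon's test at 95%). Chance flags about 1 in 20 such sets.

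In HDM/CP lungs, Col14a1 was at 5.18 in library 96 (group median 5.823), Col16a1 at 5.735 in library 97 (5.464), Col28a1 at 2.093 in library 45 (0.4104) and Col9a3 at -0.1904 in library 49 (0.6256). In HDM/SAL lungs, Col4a4 was at 7.936 in library 100 (7.668).

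In PBS/CP lungs, library 75 was low for Col4a2 at 9.217 (9.649) and for Col4a5 at 6.577 (6.94), and Col6a1 was at 8.751 in library 101 (8.472). Col24a1 was at -1.791 in library 57 (-0.5267) and Col25a1 at -3.844 in library 59 (-1.146). Col2a1 was at -5.163 in library 76 (-3.398), where its TPM is listed at 0.

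In PBS/SAL lungs, library 81 was low for Col13a1 at 5.865 (6.147) and high for Col23a1 at 6.81 (6.513). Col12a1 was at 6.869 in library 79 (6.247) and Col18a1 at 6.21 in library 105 (5.725). Col11a1 was at -5.163 in library 64 (-2.448), where its TPM is listed at 0. Of the called genes, Col12a1, Col18a1, Col23a1, Col24a1 and Col6a1 are among these, each in 1 PBS group.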

How the results depend on the processing

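The log2 fold changes of the called genes, and of the gene of smallest p in each comparison, kept their sign under every alternative run. The signs of the other collagen genes were not checked. DESeq2 called 4 collagen genes in HDM/CP against HDM/SAL lungs and 3 for combustion products averaged, against 0 by edgeR. The log2(TPM + 1) scale with no filter called 5 in HDM/CP against PBS/CP lungs, against 9. There it called 1194 of 40749 genes in all, against 1938 of 24629. Without the libraries under 60 M, 4 were called in HDM/SAL against PBS/SAL lungs, against 2, and 1 for combustion products averaged, against 0. Leaving out each library in turn gave 12 to 16 calls in HDM/CP against PBS/SAL lungs, 4 to 10 in HDM/CP against PBS/CP lungs (4 without HDM/CP 98 and 5 without HDM/CP 49, HDM/CP 67 or PBS/CP 59), 2 to 3 in HDM/SAL against PBS/SAL lungs, 0 to 2 in HDM/CP against HDM/SAL lungs (1 without HDM/CP 45 and 2 without HDM/CP 96), 0 to 1 for combustion products averaged, and 0 to 0 in PBS/CP against PBS/SAL lungs and for the interaction. Calls over all genes moved too. In HDM/CP against PBS/CP lungs they were 1207 of 24509 genes without HDM/CP 98, against 1938 of 24629 with all libraries. In HDM/CP against PBS/SAL lungs they were 2685 of 24509 without HDM/CP 98 and 3692 of 24552 without HDM/CP 45, against 3567 of 24629. In HDM/CP against HDM/SAL lungs they were 146 of 24552 without HDM/CP 45 and 46 of 24541 without HDM/CP 96, against 1 of 24629. The cause was not tested. Over all genes, log2(TPM + 1) of genes averaging 0.5 TPM or more put 521 of 1370 calls higher in HDM/SAL against PBS/SAL lungs, against 786 of 1339. No paired analysis was possible because the groups share no library numbers. Chains under about 1 TPM, such as Col24a1, rest on few reads, and StringTie estimates add error that the counts do not show.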
